A study of Mus musculus with 8 samples.

Results

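The genes described here encode the subunits of the proteasome, the barrel-shaped protease that degrades proteins tagged with ubiquitin. They were chosen by name: a probe set had to map to exactly 1 gene symbol beginning with Psma, Psmb, Psmc or Psmd followed by a digit, and the immunoproteasome genes Psmb8, Psmb9 and Psmb10 were left out. The rule took 45 of the 12422 probe sets that were not controls, and they stood for 35 of 8251 genes with a probe set of their own. Of these genes 31 encode subunits of the constitutive proteasome and 3, Psmd5, Psmd9 and Psmd10, encode chaperones that help to assemble its regulatory particle. The remaining gene, Psmc3ip, shares the prefix only, since it encodes a partner of the meiotic recombination machinery. RNA was measured on 8 single-colour Affymetrix mouse arrays, 1 sample per array. On 4 arrays it came from mature confluent monolayers of mouse aortic endothelial cells, and on the other 4 from the same kind of cells in subconfluent culture, below 50% confluency. The number of cells per sample was the same in both groups. No treatment or genetic change is named for either group, and no strain, age or passage. The comparison asks how transcript levels differ between a closed monolayer and cells that still have room to grow.

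The proteasome has a core particle of stacked rings and a regulatory particle that caps it. The outer rings hold the alpha subunits (Psma genes), which gate the entry to the chamber, and the inner rings hold the beta subunits (Psmb genes), of which Psmb5, Psmb6 and Psmb7 carry the proteolytic active sites. In the regulatory particle the base contains the ATPases that unfold substrates (Psmc genes) with the large scaffold subunits Psmd1 and Psmd2 and the ubiquitin receptor Psmd4, while the lid contains the deubiquitinase Psmd14 and its scaffold. Transcription of the subunit genes is known to be coordinated, and the transcription factors Nfe2l1, which binds antioxidant response elements, and NF-Y, which binds CCAAT boxes, are among the regulators described for them.

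The promoters were searched for letters that the members might share, and whether such letters go with the differences below was not tested. All 35 genes were found in the RefSeq gene table, and 29 of them had a start site in the RefSeq promoter table (build GRCm38.p6), with 31 promoters in all. The 250 bases before each start were searched on both strands for CCAAT (the CCAAT box), TGACNNNGC (the core of the antioxidant response element), GGGCGG (the GC box) and CCGGAAG (the core bound by ETS factors). The ETS core was held by 11 of the 31 member promoters (35.5%), against 6.91% of all 32851 promoters of the same length. Promoters were counted, not genes, and Psmc3ip was among the holders of the ETS core and of the CCAAT box. The GC box was held by 17 (54.8%, against 32.7% of all promoters), the CCAAT box by 12 (38.7%, against 33.8%) and the antioxidant response element core by 5 (16.1%, against 10.2%), those of Psmb5, Psmb6, Psmc6, Psmd9 and Psmd12. The median GC content of the windows was 54.8% for the members and 52.4% over all promoters. Of the 31 windows 27 held at least 1 of the 4 sets of letters. A match describes letters only, and none of these windows was measured here for binding. The windows of 4 members are shown to let the matches be seen beside the values given later. Psmd1 (chr1:86064369-86064618, plus strand) is the subunit gene with the smallest p-value and held none of the letters, and Psmb3 (chr11:97703184-97703433, plus strand) held 2 CCAAT boxes. Psmc1 (chr12:100109952-100110201, plus strand) held a CCAAT box and an ETS core on the opposite strand, and Psmb6 (chr11:70525107-70525356, plus strand) held a GC box on the opposite strand and an antioxidant response element core. Capitals mark the matches, which do not overlap each other in these windows, and the sequences run 5′ to 3′ towards the start site.
Psmd1: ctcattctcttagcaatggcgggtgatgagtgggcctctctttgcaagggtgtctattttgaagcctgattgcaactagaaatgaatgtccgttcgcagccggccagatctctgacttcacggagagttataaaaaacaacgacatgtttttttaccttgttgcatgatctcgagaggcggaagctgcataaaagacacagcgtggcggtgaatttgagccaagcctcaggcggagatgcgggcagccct
Psmb3: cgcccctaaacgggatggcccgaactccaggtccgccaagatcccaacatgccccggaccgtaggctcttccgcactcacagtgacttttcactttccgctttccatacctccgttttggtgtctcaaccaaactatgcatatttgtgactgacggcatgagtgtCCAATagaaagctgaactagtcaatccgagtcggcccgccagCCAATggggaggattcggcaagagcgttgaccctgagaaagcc
Psmc1: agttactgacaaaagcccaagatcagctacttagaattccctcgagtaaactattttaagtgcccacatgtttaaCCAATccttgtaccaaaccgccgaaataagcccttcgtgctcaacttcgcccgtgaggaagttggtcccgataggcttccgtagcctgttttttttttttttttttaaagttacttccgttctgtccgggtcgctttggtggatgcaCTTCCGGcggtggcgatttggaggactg
Psmb6: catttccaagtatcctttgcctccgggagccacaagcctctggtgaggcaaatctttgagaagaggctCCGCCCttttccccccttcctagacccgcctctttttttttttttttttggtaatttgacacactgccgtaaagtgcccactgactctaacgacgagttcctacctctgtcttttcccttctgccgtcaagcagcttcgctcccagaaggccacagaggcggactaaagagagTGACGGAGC

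Signals are linear and were scaled by the authors on each array to a target of 500, with scale factors of 3.05 to 13.3, and array medians lay between 169 and 187. A mean of 200 or more over the 8 arrays was required for testing, which left 6007 probe sets in all and 38 of the 45 members, standing for 32 genes. Replicate numbers were treated as pairs, a choice made on these same data. Deviations from the group means correlated at 0.348 to 0.516 for same-numbered arrays and at most at 0.0681 for others. Values are given both without pairs and in a fit that has the pairs as a block. The labelled cell type was checked against its markers. Of 20 endothelial markers with a probe set, 16 had a mean signal below 200, among them Pecam1, Cdh5, Kdr, Tek, Vwf and Nos3, and 4 (Eng, Cd34, Procr and Edn1) reached it. Of 23 fibroblast and pericyte markers 16 reached it. The summed signal of the 23 ran from 87597 to 117696 on the confluent and from 48946 to 69178 on the subconfluent arrays. By limma without pairs 7 of the 16 were called lower in subconfluent cells, where 4.06% of all tested probe sets were. No marker of the lists was listed at 0. Of the macrophage and lymphocyte markers 1 of 11 and 1 of 8 reached the minimum. Of 7 smooth muscle markers 3 did, and they did not move together. Acta2 (1.14) and Tagln (1.47) rose with the pairs as a block (limma adjusted p = 0.0172 and 0.0102) but did not pass without pairs (0.228 and 0.108). Mylk fell by 1.84 on the log2 scale (limma adjusted p = 0.0163 without pairs, and 0.000694 with the block). The summed signal of the 7 ran from 2924 to 4810 on the confluent and from 1805 to 9397 on the subconfluent arrays. The mitosis genes summed to 16557 to 39019 on the confluent and to 44747 to 48329 on the subconfluent arrays. The part of these cell type and cell cycle differences in the results below was not tested. In such bulk RNA, fewer cells of a type and less RNA per cell cannot be told apart.

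Most proteasome genes had slightly higher signals in subconfluent cells, by amounts that no single member carried past the threshold in the fit without pairs. Of the 38 tested member probe sets 32 had a log2 difference above 0, against 51.2% of all tested probe sets. The median log2 difference (subconfluent minus confluent, of log2 values after adding 50 to the signal) was 0.21 over the members and 0.01 over all tested probe sets. By limma with Benjamini-Hochberg adjustment over all tested probe sets, 0 members were called higher, where 2.75% of all tested probe sets were, and 0 were called lower, where 4.06% were. At an unadjusted p under 0.05 there were 9 members higher (13.2% of all tested probe sets) and 1 lower (12.8%). The groups' 4 values did not overlap for 3 members that were higher in subconfluent cells, Psmd1, Psmd7 and 1 probe set of Psmc3 (8.34% of all tested probe sets), and for 1 that was lower, Psmb1 (8.54%). With the pairs as a block 5 members rose, namely Psmd1, Psmd5, Psmd7, Psmd13 and Psmb3, where 9.94% of all tested probe sets were called higher. In the same fit 1 member fell, Psmb1, where 11.3% of all tested probe sets were called lower. The share of members called higher was thus close to that over all tested probe sets, and the share called lower was smaller. Median centring of the arrays turned the split over all tested probe sets from 165 higher and 244 lower to 237 and 211, while its member calls were 1 higher (Psmd1) and 0 lower. The 95% interval of the difference lay within a 2-fold change in either direction for 37 of the 38 members (76.7% of all tested probe sets) and within a 1.5-fold change for 14 (36.8%, against 32.8% of all tested probe sets). The exception at 2-fold was Psmd5, whose interval ran from 0.24 to 1.24.

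**Figure D1:**
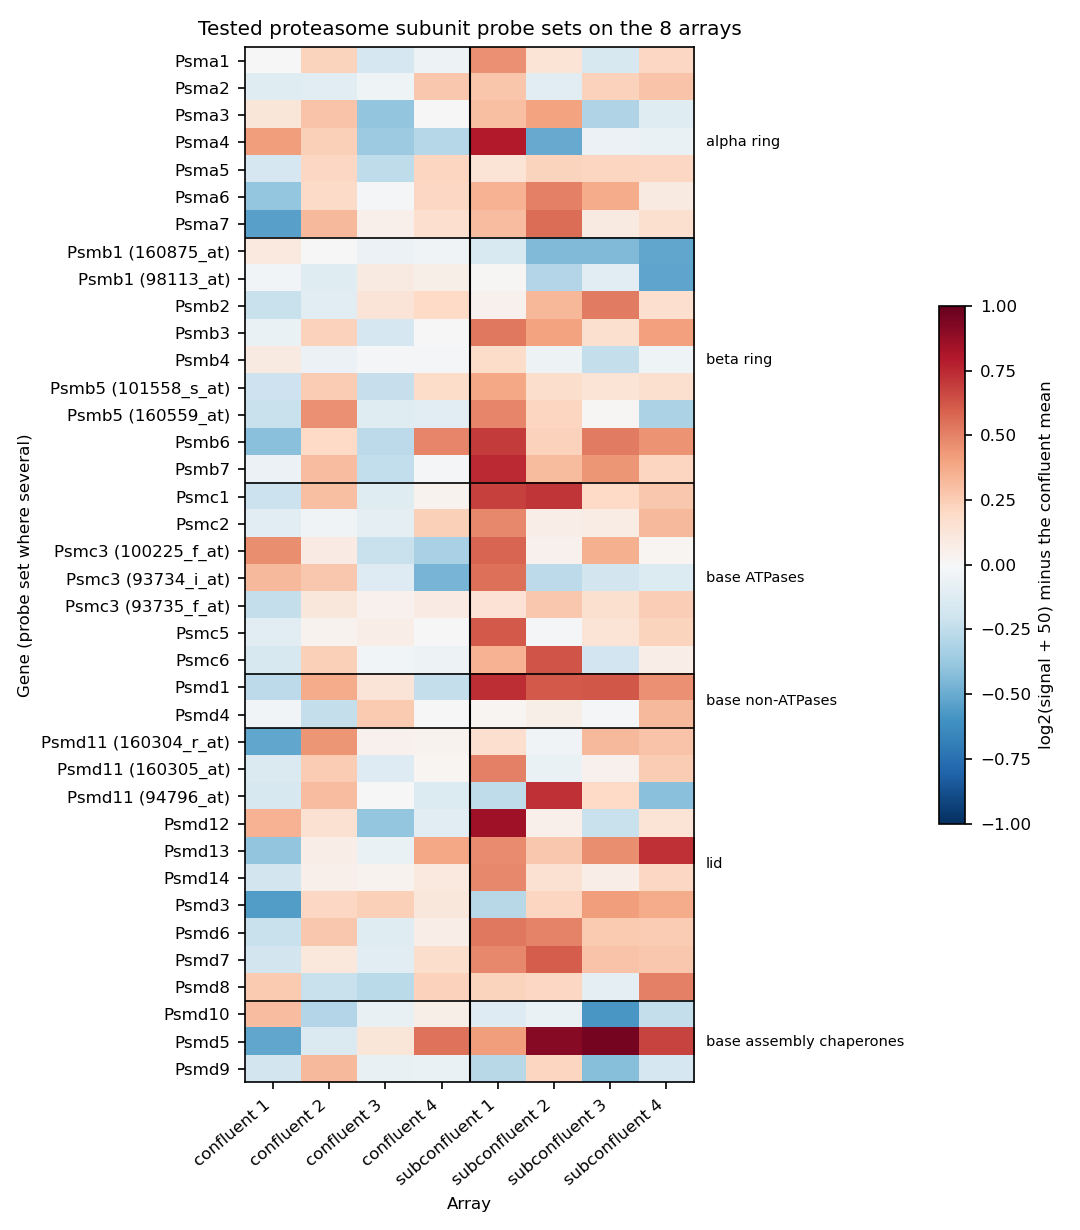
Heat map of the 38 tested member probe sets (rows, grouped by place in the proteasome) on the 8 arrays (columns), coloured by log2(signal + 50) minus the mean of the 4 confluent arrays, with red above and blue below it. The column of confluent replicate 1 is the lowest of the 8 for 18 members, and that of subconfluent replicate 1 is the highest for 17. The rows of Psmb1 (160875_at), Psmd9 and Psmd10 are among the few that are mostly blue on the subconfluent side.

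The size of the difference varied between pairs of arrays. In pair 1 the members' median log2 difference was 0.50, and 33 of 38 were higher on the subconfluent array (53.0% of all tested probe sets). It was 0.06 in pair 2, with 25 higher (48.6%), 0.18 in pair 3, with 30 higher (47.6%), and 0.12 in pair 4, with 24 higher (50.8%). In every pair, then, more than an even share of the members were higher in the subconfluent sample, and by the most in pair 1. Of the 38 members 13 were higher in all 4 pairs, where 20.7% of all tested probe sets were, and 2 were lower in all 4 (22.1%). Confluent replicate 1 was the lowest of the 8 arrays for 18 members (47.4%, against 23.5% of all tested probe sets). Subconfluent replicate 1 was the highest of the 8 for 17 members (44.7%, against 15.0%). These arrays also make up chip lot A, so that pair 1 and the comparison within that lot are the same. Pair 3 lies within lot C, while pair 2 joins lots B and D and pair 4 joins lots B and C. Differences between the pairs therefore cannot be told apart from differences between chip lots. Without pair 1 the members' median with the block was 0.11. Within chip lot C, which holds confluent replicate 3 and subconfluent replicates 3 and 4, the median was 0.25 with 28 members above 0, and with the lot as a fixed block it was 0.34 with 31 above 0. Relative to the confluent mean the members' median stood at -0.16, 0.20, -0.08 and 0.04 on confluent replicates 1 to 4 and at 0.40, 0.21, 0.13 and 0.21 on subconfluent replicates 1 to 4. Confluent replicate 2 thus reached the level of the subconfluent arrays. The mitosis genes stood at -0.78, 0.45, 0.09 and 0.17 on the same confluent arrays and between 0.71 and 0.77 on the subconfluent ones, so that confluent replicate 1 was lowest and confluent replicate 2 highest among the confluent arrays in both sets. Fibroblast and pericyte markers stood at 0.17, 0.13, 0.05 and -0.25 on the confluent arrays and from -1.08 to -0.21 on the subconfluent ones.

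**Figure D2:**
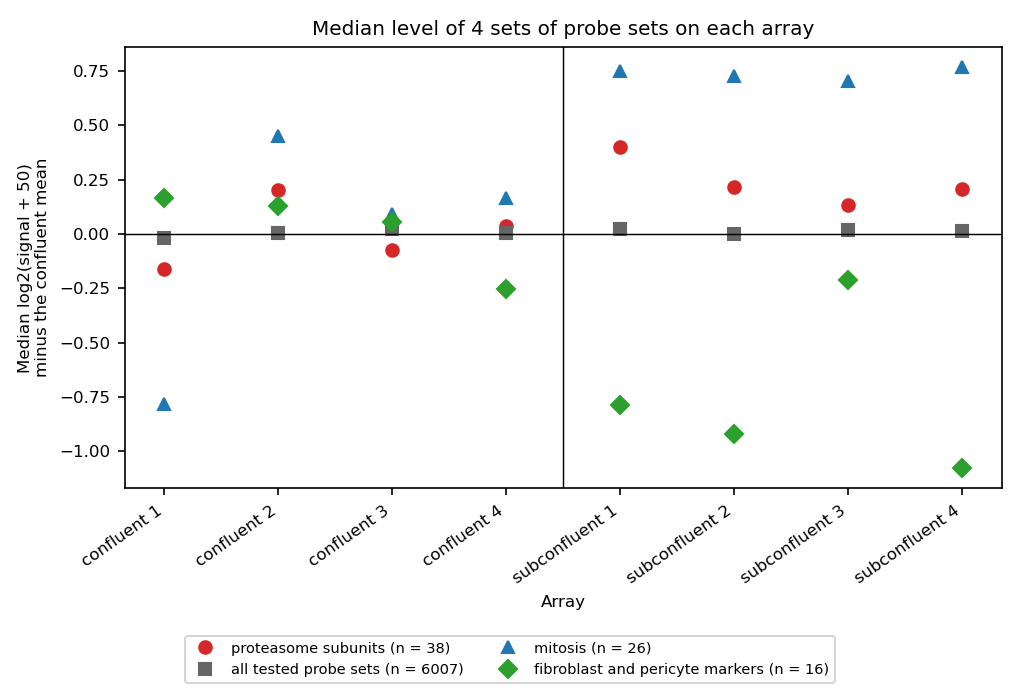
Median of log2(signal + 50) minus the confluent mean (vertical axis) on each of the 8 arrays (horizontal axis) for the 38 tested proteasome members, all 6007 tested probe sets, 26 mitosis genes and 16 fibroblast and pericyte markers. The proteasome members run from -0.16 to 0.20 on the confluent and from 0.13 to 0.40 on the subconfluent arrays, a smaller step than that of the mitosis genes.

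In the alpha ring, the gate of the core particle, all 7 genes had a tested probe set. All 7 differences were above 0 (51.2% of all tested probe sets), with a median of 0.17. In the fit without pairs 0 passed, where 2.75% of all tested probe sets were called higher and 4.06% lower. With the block 0 passed, where 9.94% and 11.3% were. At an unadjusted p under 0.05 there were 0, where 13.2% of all tested probe sets were higher and 12.8% lower. A count of 0 among 7 does not set the ring apart from these shares. The differences ran from 0.04 for Psma4 to 0.33 for Psma6. Psma6 had signals of 1983.6, 2972.4, 2579.1 and 3019.8 on confluent replicates 1 to 4 and 3325.7, 3707.6, 3380.1 and 2768.1 on subconfluent replicates 1 to 4. The lowest subconfluent value lay inside the confluent range, and the log2 difference was 0.33 ± 0.17 (SE, limma adjusted p = 0.262, and 0.157 with the block). For Psma7 the values were 2316.6, 4262.8, 3511.2 and 3824.7 in confluent and 4215.4, 5017.9, 3622.6 and 3806.6 in subconfluent cells. Apart from the low confluent replicate 1 and the high subconfluent replicate 2 the groups overlapped (0.28 ± 0.20, adjusted p = 0.423, and 0.241 with the block). Of the other alpha genes, Psma1, Psma2, Psma3 and Psma5 stood at 0.16, 0.17, 0.07 and 0.19. The intervals of all 7 excluded a 2-fold change, and the widest was that of Psma4, from -0.56 to 0.65.

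The beta ring held the 1 member called lower with the pairs as a block. Psmb1, a structural beta subunit without an active site, had 2 tested probe sets. On the first (160875_at) the signals were 5659.9, 5299.0, 5073.1 and 5180.3 on confluent replicates 1 to 4 and 4756.4, 3887.1, 3898.1 and 3680.0 on subconfluent replicates 1 to 4. Every subconfluent value was below every confluent one and below its partner in the pair. The log2 difference was -0.39 ± 0.14 (SE, 1.31-fold lower, limma adjusted p = 0.101, and 0.0342 with the block). It was -0.25 within lot A, -0.42 within lot C and -0.34 with the lot as a block (adjusted p = 0.173). With the block the call was lost without pair 2, 3 or 4, with adjusted p up to 0.144. The second probe set of Psmb1 (98113_at) had signals of 4742.8, 4433.3, 5149.2 and 5041.0 in confluent and 4882.6, 3942.0, 4491.8 and 3340.4 in subconfluent cells. It pointed the same way in 3 of 4 pairs but did not pass (-0.23 ± 0.15, adjusted p = 0.389, and 0.249 with the block). Another probe set of the gene stayed below the minimum signal.

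Psmb3, another structural beta subunit, was among the members that rose with the block. Its signals were 3963.7, 4877.7, 3677.5 and 4162.4 on the confluent and 6013.2, 5491.4, 4636.5 and 5542.9 on the subconfluent arrays. Subconfluent replicate 3 fell below confluent replicate 2, and all 4 pairs were higher in the subconfluent sample. The log2 difference was 0.38 ± 0.15 (SE, 1.30-fold, limma adjusted p = 0.136, and 0.0490 with the block). It was 0.60 within lot A, 0.46 within lot C and 0.52 with the lot as a block (adjusted p = 0.0794). The call with the block was lost without pair 1, 3 or 4, with adjusted p up to 0.160.

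The catalytic subunits of the beta ring were higher without passing in either of those fits. Psmb6, the caspase-like subunit, stood at 0.47 (95% interval 0.01 to 0.94, adjusted p = 0.186, and 0.128 with the block), and Psmb7, the trypsin-like subunit, at 0.43 (0.05 to 0.81, adjusted p = 0.143, and 0.0814 with the block). With chip lot as a fixed block, a fit that takes the difference from lots A and C alone, both passed, at 0.91 (adjusted p = 0.0233) and 0.67 (adjusted p = 0.0491). In Psmb6 the 4 pairs differed by 1.12, 0.03, 0.78 and -0.04, so that pairs 1 and 3 carried its difference, and in Psmb7 by 0.81, 0.01, 0.69 and 0.23. Psmb5, the chymotrypsin-like subunit, had 2 tested probe sets, at 0.21 and 0.10, and in both 2 pairs were higher and 2 lower. Psmb2 stood at 0.27 and the tested probe set of Psmb4 at -0.04. The other 2 probe sets of Psmb4 stayed below the minimum signal. Over the 9 tested beta probe sets the median was 0.21, with 6 above 0.

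**Figure D3:**
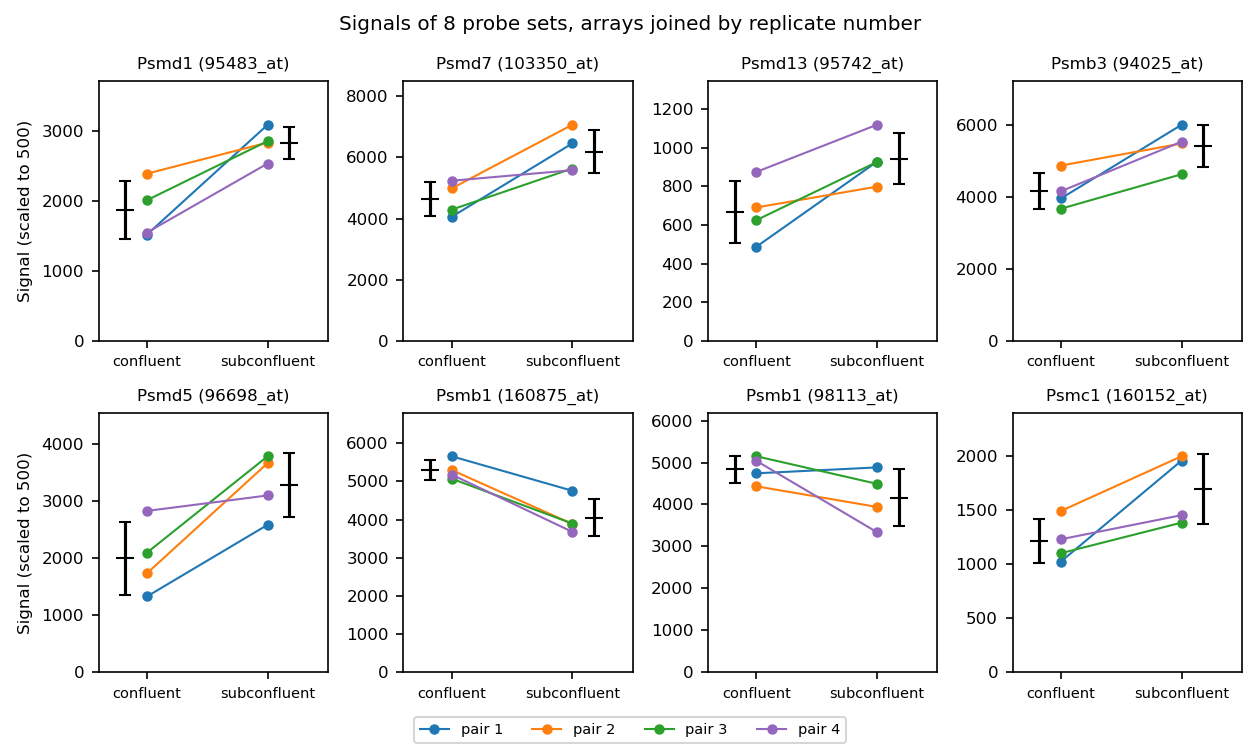
Signals (vertical axes, scaled to a target of 500 and starting at 0) of 8 probe sets in confluent and subconfluent cells, with arrays of the same replicate number joined by a line and black bars for the mean and SD of 4 arrays. Lines of Psmd1, Psmd7, Psmd13, Psmb3, Psmd5 and Psmc1 climb in all 4 pairs, those of Psmb1 160875_at descend in all 4, and those of Psmb1 98113_at descend in 3.

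Among the base ATPases, the motor that unfolds substrates, 7 probe sets of 5 genes were tested. Their median was 0.24, with 6 above 0 (51.2% of all tested probe sets). In the fit without pairs 0 passed, where 2.75% of all tested probe sets were called higher and 4.06% lower. With the block 0 passed, where 9.94% and 11.3% were. At an unadjusted p under 0.05 there were 1 higher, Psmc1 (13.2% of all tested probe sets), and 0 lower (12.8%). Psmc1 had signals of 1024.5, 1491.8, 1101.5 and 1230.2 on the confluent and 1957.6, 1997.5, 1384.2 and 1453.2 on the subconfluent arrays. Confluent replicate 2 lay above subconfluent replicates 3 and 4, while all 4 pairs were higher in the subconfluent sample. The log2 difference was 0.46 ± 0.18 (SE, limma adjusted p = 0.136, and 0.0523 with the block). Psmc2 had signals of 2361.7, 2475.9, 2373.3 and 3004.7 in confluent and 3562.5, 2663.6, 2679.9 and 3195.9 in subconfluent cells. It too was higher in all 4 pairs, with overlapping groups (0.24 ± 0.16, adjusted p = 0.381, and 0.232 with the block). Psmc5 and Psmc6 stood at 0.24 and 0.21. The probe set of Psmc4 (31.5 to 137.9 on the 8 arrays) and the second probe set of Psmc5 (15.0 to 63.6) stayed below the minimum signal and were not tested.

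The 3 probe sets of the ATPase gene Psmc3 did not share a direction. On the first (93735_f_at) the signals were 1256.4, 1616.1, 1544.0 and 1585.7 in confluent and 1657.1, 1811.2, 1671.1 and 1776.1 in subconfluent cells, without overlap and higher in all 4 pairs, though the difference of 0.20 did not pass (adjusted p = 0.412, and 0.268 with the block). On the second (93734_i_at) they were 1530.8, 1476.3, 1109.0 and 866.5 against 1806.2, 1006.7, 1061.4 and 1102.0, with a difference of -0.01 that turned positive with median centring (0.04) and with the lot as a block (0.08). On the third (100225_f_at) they were 600.6, 449.5, 352.8 and 326.9 against 653.6, 436.2, 553.5 and 428.0, with a difference of 0.25. All 3 names carry a letter that marks probes shared with related sequences or an incomplete set. A letter of some kind is carried by 10 of the 38 tested members. Among these the r of Psmd9 (97929_r_at) and Psmd11 (160304_r_at) has another meaning, that of probes picked by other rules. Over the 28 with a plain name the median was 0.22, with 25 above 0.

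Psmd1, the large scaffold subunit of the base, had the smallest p-value of the subunits. Its signals were 1519.7, 2390.3, 2011.0 and 1548.8 on confluent replicates 1 to 4 and 3089.3, 2834.3, 2855.2 and 2535.3 on subconfluent replicates 1 to 4. All subconfluent values lay above all confluent ones, and confluent replicate 2 came closest. Means were 1867 ± 415 for the confluent and 2829 ± 227 for the subconfluent group (SD over 4 arrays). The log2 difference was 0.61 ± 0.17 (SE, 95% interval 0.22 to 0.99, 1.52-fold, limma adjusted p = 0.0590, and 0.0215 with the block). It was 1.00 within lot A, 0.41 within lot C and 0.66 with the lot as a block (adjusted p = 0.102). Without confluent replicate 2 it passed in the fit without pairs (0.73, adjusted p = 0.0250), and with median centring too (0.65, adjusted p = 0.0444). The call with the block was lost without pair 1, 3 or 4, with adjusted p up to 0.0874. The ubiquitin receptor gene Psmd4, by contrast, had signals of 1437.1, 1232.6, 1767.3 and 1471.0 in confluent and 1482.5, 1526.9, 1441.2 and 1844.9 in subconfluent cells. Its groups overlapped over most of their range, and the difference was 0.09 (interval -0.26 to 0.44, adjusted p = 0.768, and 0.682 with the block), or -0.05 with the lot as a block. The probe set of Psmd2 (26.4 to 109.7) stayed below the minimum signal.

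In the lid all 10 tested probe sets, of 8 genes, had a difference above 0, with a median of 0.20. With the block 2 of them rose, where 9.94% of all tested probe sets did. Psmd7, the structural partner of the lid's deubiquitinase, had signals of 4053.9, 4982.0, 4289.8 and 5233.5 in confluent and 6454.8, 7064.6, 5634.3 and 5579.6 in subconfluent cells. The groups did not overlap, and the nearest values were those of pair 4. The log2 difference was 0.41 ± 0.15 (SE, 1.33-fold, limma adjusted p = 0.108, and 0.0455 with the block). For Psmd13, a scaffold subunit, the signals were 486.6, 690.0, 624.3 and 873.7 against 926.8, 797.9, 925.4 and 1117.9. Only subconfluent replicate 2 fell within the confluent range, and all 4 pairs were higher in the subconfluent sample. The log2 difference was 0.48 ± 0.19 (SE, 1.40-fold, adjusted p = 0.135, and 0.0463 with the block). Within lot A, within lot C and with the lot as a block Psmd7 stood at 0.66, 0.38 and 0.50 (adjusted p = 0.0678), and Psmd13 at 0.86, 0.66 and 0.75 (adjusted p = 0.0433). Leaving out any of the 4 pairs ended the call of Psmd7 with the block (adjusted p up to 0.139), and leaving out pair 1, 3 or 4 ended that of Psmd13 (up to 0.154). Psmd6, another scaffold subunit, stood at 0.38 (adjusted p = 0.148, and 0.0689 with the block) and was higher in all 4 pairs, as were Psmd3 (0.18) and the deubiquitinase gene Psmd14 (0.23). Psmd8 and Psmd12 stood at 0.21 and 0.20. The 3 probe sets of Psmd11 stood at 0.18, 0.18 and 0.07.

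**Figure D4:**
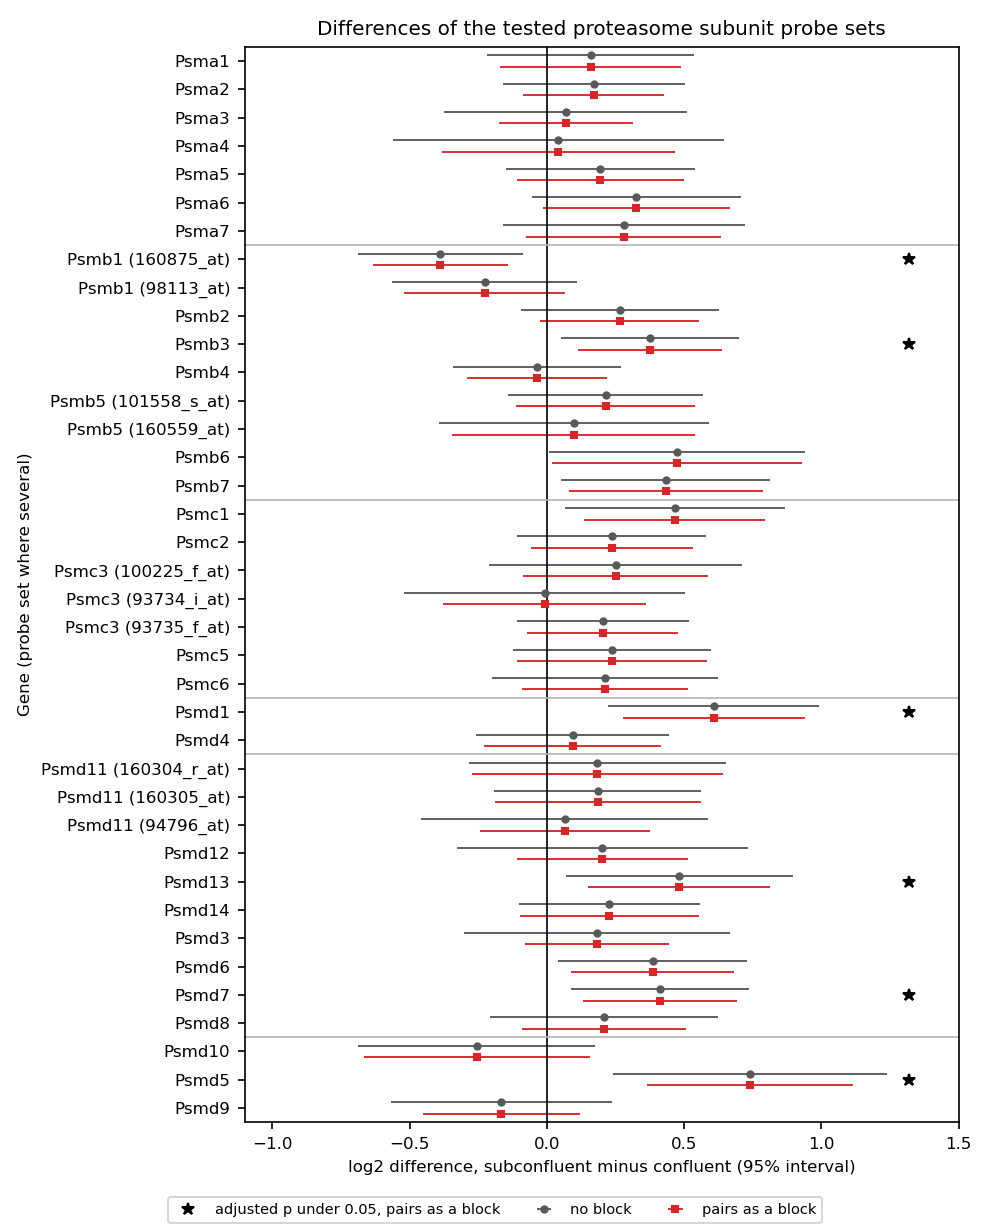
Log2 differences (horizontal axis, subconfluent minus confluent) of the 38 tested member probe sets (rows) with 95% intervals from the fit without pairs (grey) and with the pairs as a block (red). Stars mark the 6 probe sets with an adjusted p under 0.05 in the fit with the block, of which Psmb1 160875_at is the 1 with a negative difference.

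The chaperones of base assembly did not move together. Psmd5 had signals of 1327.8, 1732.7, 2092.9 and 2823.4 on confluent replicates 1 to 4 and 2581.0, 3660.5, 3779.6 and 3094.0 on subconfluent replicates 1 to 4. Confluent replicate 4 lay above subconfluent replicate 1, while all 4 pairs were higher in the subconfluent sample. The log2 difference of 0.74 ± 0.23 was the highest of the 38 members (SE, 1.67-fold, limma adjusted p = 0.0709, and 0.0160 with the block). It was 0.93 within lot A, 0.70 within lot C and 0.80 with the lot as a block (adjusted p = 0.0599). In pair 4 it was 0.13, against 0.84 to 1.06 in the other pairs. With the block the call was lost without pair 1 or 3 (adjusted p up to 0.0723). Psmd10, known as gankyrin, had signals of 349.5, 213.8, 256.6 and 286.4 against 245.3, 258.5, 165.4 and 223.0, with overlapping groups and a difference of -0.26 (adjusted p = 0.460, and 0.354 with the block). Psmd9 stood at -0.17 and was lower in all 4 pairs without passing (adjusted p = 0.629, and 0.393 with the block).

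Psmc3ip, the recombination gene that shares the prefix, stayed below the minimum signal. Its values were 16.7, 60.7, 28.0 and 44.4 on the confluent and 158.3, 63.1, 107.6 and 107.0 on the subconfluent arrays, without overlap. When all probe sets were tested it stood at 0.86 and did not pass (limma adjusted p = 0.0959).

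Of the genes around the proteasome 53 were listed, 35 had a probe set of their own and 33 were tested, of which 15 had a difference above 0, with a median of -0.01. In the limma fit without pairs 0 of the 33 rose and 2 fell, where 2.75% and 4.06% of all tested probe sets did. At an unadjusted p under 0.05 in that fit 3 were higher and 4 lower, where 13.2% and 12.8% of all tested probe sets were. With the block 2 rose and 4 fell, where 9.94% and 11.3% of all tested probe sets did, so that these counts lie near or below the shares over all tested probe sets. The list of 6 ubiquitin and ubiquitin-activating genes had 0 members with a probe set of a single symbol. Psme1, a subunit of the interferon-induced activator that docks on the core particle, had signals of 1685.4, 922.5, 1348.7 and 1302.5 in confluent and 511.8, 400.7, 634.0 and 640.0 in subconfluent cells. All subconfluent values lay below all confluent ones. It fell by 1.18 ± 0.21 on the log2 scale (SE, 2.27-fold lower, limma adjusted p = 0.0137, and 0.00194 with the block), with -1.63 within lot A, -1.03 within lot C and -1.28 with the lot as a block. Within lot C alone, 1 array against 2, it did not pass (adjusted p = 0.194). The other activator genes did not pass in either fit, with Psme3 at 0.24 and Psme4 at 0.19. Of the immunoproteasome subunits that the rule left out, Psmb10 stood at -0.02 (adjusted p = 0.948). Psmb8 stayed below the minimum signal with values of 604.9, 117.0, 141.8 and 175.8 against 63.9, 14.2, 22.9 and 14.4, which do not overlap. Psmb9 stayed below the minimum too, with values of 340.4, 49.9, 40 and 38.4 against 20.4, 28.3, 72.9 and 20.7, which overlap. Psmb9 was higher in the subconfluent sample of pair 3. When all probe sets were tested, Psmb8 stood at -1.78 and Psmb9 at -0.67, and neither passed (limma adjusted p = 0.0528 and 0.502). Psmb10 itself had signals of 1643.4, 1424.9, 1398.0 and 1585.3 on the confluent and 1734.5, 1446.8, 1415.0 and 1374.0 on the subconfluent arrays. Psmg1, a chaperone of core assembly, had signals of 399.2, 871.5, 648.3 and 630.6 in confluent and 705.6, 1026.2, 930.5 and 887.5 in subconfluent cells. All 4 pairs were higher in the subconfluent sample, and it rose with the block (0.48, adjusted p = 0.0350, and 0.191 without it), a call that was lost without pair 1, 3 or 4 (adjusted p up to 0.122). The other assembly factors did not pass in either fit, and Psmg2, Psmg3, Psmg4 and Pomp stood at 0.30, 0.02, 0.04 and -0.02. Uchl5 and Usp14 encode deubiquitinases that dock on the regulatory particle. Uchl5 had signals of 282.1, 633.4, 412.5 and 397.0 against 1287.1, 527.9, 603.3 and 880.5, lower in the subconfluent sample of pair 2 and higher in the other pairs (0.83, adjusted p = 0.0965, and 0.0839 with the block). It passed without confluent replicate 2 (1.02, adjusted p = 0.0467) and with the lot as a block (1.29, adjusted p = 0.0404). Usp14 had signals of 761.6, 992.8, 739.8 and 839.9 against 1276.9, 1144.6, 820.9 and 1069.1, higher in all 4 pairs without passing (0.34, adjusted p = 0.234, and 0.115 with the block).

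Among shuttle factors and cofactors of the unfoldase p97, Sqstm1, an autophagy receptor for ubiquitinated cargo, had signals of 3402.4, 1836.9, 1942.4 and 1665.4 in confluent and 941.9, 1329.2, 962.7 and 817.1 in subconfluent cells. The groups did not overlap, and it fell by 1.05 ± 0.23 on the log2 scale (SE, limma adjusted p = 0.0293, and 0.00904 with the block). The call without pairs was lost without confluent replicate 3 (adjusted p = 0.0646) or subconfluent replicate 1, 3 or 4 (0.0651, 0.0553 and 0.0747), and within lot C alone (0.191). Ubxn1, a p97 cofactor, had signals of 4583.6, 3292.5, 3678.1 and 3582.4 against 3213.1, 2176.5, 3332.7 and 2762.0. It was lower in all 4 pairs and fell with the block (-0.40, adjusted p = 0.0480, and 0.178 without it), a call that leaving out any pair ended (adjusted p up to 0.138), while Vcp, the gene of p97 itself, stood at -0.02. Of the regulators of proteasome genes, Nfe2l1 had signals of 1474.5, 1248.1, 1598.7 and 1326.8 against 1163.9, 1358.5, 1545.2 and 1286.1, with a difference of -0.08 (adjusted p = 0.810, and 0.721 with the block). Nfya, the subunit of NF-Y that contacts the CCAAT box, had signals of 326.8, 410.6, 414.1 and 507.9 against 580.6, 539.8, 607.2 and 631.1. Its groups did not overlap, and it rose with the block (0.47, adjusted p = 0.0404, and 0.0902 without it). The call was lost without pair 1, 3 or 4 (adjusted p up to 0.141). The other NF-Y genes, Nfyb and Nfyc, stood at 0.33 and 0.18 and did not pass in either fit, though Nfyb passed with the lot as a block (0.77, adjusted p = 0.0403). Stat3, a transcription factor activated by cytokines, had signals of 2025.6, 1975.6, 2448.7 and 2588.0 against 1261.0, 1083.4, 2270.8 and 1793.1. It was lower in all 4 pairs and fell with the block (-0.53, adjusted p = 0.0327, and 0.166 without it), a call lost without pair 1, 2 or 4 (adjusted p up to 0.108). Within lots A and C, in that order, Psmg1 stood at 0.75 and 0.46, Sqstm1 at -1.80 and -1.09, Ubxn1 at -0.51 and -0.27, Nfya at 0.74 and 0.53, and Stat3 at -0.66 and -0.27.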

How the data were processed

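Expression was measured on 8 arrays, 4 of confluent and 4 of subconfluent cells. Per the labels, the authors deposited linear signal values from the Affymetrix statistical algorithm, scaled to a target of 500. Its version is not given in the sources used here. Of 12488 probe sets 66 controls were left out. Gene symbols came from the platform annotation, in which 10833 of the remaining probe sets had 1 symbol. A related gene with several probe sets is given by the brightest of them.

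A constant of 50 was added before taking log2, so folds of dim genes are understated. Probe sets averaging 200 or more were fitted in R 4.3.3 by limma 3.58.1 (lmFit, then eBayes allowing a variance trend), two-sided, with Benjamini-Hochberg adjustment over 6007 probe sets and a threshold of 0.05. The fit had 6 residual degrees of freedom, or 3 with the pairs as a block. Deviations from the group means correlated at 0.486, 0.357, 0.516 and 0.348 for arrays of the same replicate number. For others they correlated at most at 0.0681, and these values are the basis of the pairing. Deviations balance out within a group, so high values for same-numbered arrays lower the others. The choice to pair was made on these same data, and the arrays of replicate 1 and those of replicate 3 also share a chip lot. The labels number the experiments without describing separate cultures, so p-values measure the spread between these samples. The fit without pairs was run on simulated data that held no pair or lot effect, and the fit with the block was not. Tables and plots used Python 3.11.15, pandas 2.3.3, numpy 2.4.6 and matplotlib 3.10.9.

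Values on every array are given for members called in either fit, for the 2 with the smallest p in each structural group and for members whose probe sets differ in sign, and from each related list for genes called in either fit or among the 2 with the smallest p. The second probe set of Psmb1, Psmc3ip, Psmb8, Psmb9 and Nfe2l1 were added after their values were seen. The members and lists were chosen with earlier results of these data known. Alternatives were other pseudocounts, filters, normalizations, chip lot, the block, 1 probe set per gene and left-out arrays or pairs.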

Additional observations from a re-analysis of the deposited data

Results flagged for a closer look

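Among 90 groups of 4 arrays (45 member probe sets in 2 groups), 4 held an array far from the other 3, its gap to the nearest of them taking up more of the group's range than Dixon's critical value allows. Chance alone gives about 1 in 20 such groups. Psma2 was low on subconfluent replicate 2, at 5990.1 against 7568.1 to 7867.9 on the other subconfluent arrays. Psmb5 (160559_at) was high on confluent replicate 2, at 382.1 against 219.7 to 240.7. Psmc3 (93734_i_at) was high on subconfluent replicate 1, at 1806.2 against 1006.7 to 1102.0. Psmd3 was low on confluent replicate 1, at 1732.3 against 2795.9 to 3050.7.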

How the results depend on the processing

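The members' median log2 difference stayed above 0 in every alternative run, from 0.11 (pairs as a block, without pair 1) to 0.50 (within lot A, 1 array against 1). The count of members called higher, 0 without the block, was 5 with the replicate block, 3 with chip lot as a fixed block (Psmb6, Psmb7 and Psmd13) and 1 with median centring (Psmd1), and it was 0 to 1 when single arrays were left out. With the block and 1 pair left out it ran from 0 to 5, where 3.71% to 10.9% of all tested probe sets were called higher. The 5 came without pair 2, where that share was highest. The count called lower was 1 with the replicate block, 0 in each fit without 1 array, and 0 to 1 with the block and 1 pair left out. For the related genes the count higher, 0 without the block, was 2 with the replicate block and 2 with chip lot as a fixed block, 0 to 1 without single arrays and 0 to 5 with the block and 1 pair left out. Their count lower, 2 without the block, was 4 with the replicate block, 0 within chip lot C, 1 to 2 without single arrays and 2 to 3 with the block and 1 pair left out. Over all tested probe sets the block raised the counts from 165 higher and 244 lower to 597 and 679. With the block and 1 pair left out they were 223 to 652 higher and 353 to 618 lower, most without pair 2. Without pairs they ran from 18 and 80 (without subconfluent replicate 4) to 342 and 345 (without confluent replicate 2). They were 368 and 315 with chip lot as a fixed block, 2 and 3 within lot C, 72 and 136 with no filter, and 237 and 211 with median centring. Probe sets with a plain name were taken alone as an alternative chosen after seeing the data. It gave 0 member calls. The 4 arrays per group limit the precision, and the cause of these changes was not tested.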
